A study of Mus with 2 samples.

Results

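The genes described here act on mitochondrial DNA, on its transcripts or on the fusion of mitochondria, and all are encoded in the nucleus. The 10 genes were taken by name from the 32285 genes listed for the single-nucleus RNA sequencing (snRNA-seq) of mouse interscapular brown adipose tissue (iBAT). They were *Tfam*, *Tfb2m*, *Polrmt*, *Tfb1m*, *Polg*, *Polg2*, *Lrpprc*, *Slirp*, *Mfn1* and *Mfn2*. Their levels were set beside the share of unique molecular identifiers (UMIs) from mitochondrially encoded (mt-) genes in the same nuclei.

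Both groups were C57BL/6 mice on normal chow at the age of 8 weeks, and both carried *Wtap* alleles with a floxed exon (*Wtap* flox/flox). WTAP is a subunit of the complex that places m6A on messenger RNA. The *Wtap*-BKO group also carried *Ucp1*-iCre, which is driven from the *Ucp1* gene of brown adipocytes, so other cell types of the depot are not the intended target of the deletion. Each group was 1 library of nuclei pooled from 4 mice, whose nuclei cannot be assigned to single animals, and there was thus no replicate of either genotype. No test between genotypes was possible, and every interval given here is a 95% interval for counting error only.

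Mitochondrial DNA encodes a small number of subunits of the respiratory chain and ATP synthase together with the ribosomal and transfer RNAs needed to make them, and every enzyme that copies or transcribes it is imported from the cytosol. TFAM packages mitochondrial DNA and, with TFB2M, recruits the RNA polymerase POLRMT to its promoters. The catalytic subunit POLG and its accessory subunit POLG2 replicate it, LRPPRC and SLIRP form a complex that stabilises mitochondrial messenger RNAs, and the mitofusins MFN1 and MFN2 fuse the outer membranes of neighbouring mitochondria. Brown adipocytes are rich in mitochondria, which carry the uncoupling protein UCP1 for heat production.

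The 2 libraries are called by their labels, flox/flox and BKO-labelled. They had 9494 and 8772 nuclei and 10770604 and 13945673 UMIs, with medians of 954 and 1306 UMIs per nucleus. The 10 genes together had 6684 and 6924 UMIs. *Wtap* itself had 373 and 390 UMIs in adipocyte-like nuclei, and all directions below rest on the labels. The deletion is of a single exon and UMIs were counted from 3′ ends over the whole gene, so this count does not check the labels. The libraries shared 20 barcodes. Of 12 clusters, 4 were adipocyte-like by their marker genes (6615 and 4725 nuclei), and others were endothelial-, macrophage-, T cell-, fibroblast-, pericyte- and B cell-like. Lineages are described singly below only if they had at least 100 nuclei in each library, which leaves out B cell-like nuclei (13 and 66). A further cluster, with 559 and 611 nuclei, had 32.8% and 34.9% mt- UMIs and stayed unnamed. Macrophage- and T cell-like nuclei numbered 293 and 114 in the flox/flox library against 1124 and 734 in the BKO-labelled library.

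In adipocyte-like nuclei, mt- UMIs made up 4.41% of all UMIs of the flox/flox library and 11.6% of those of the BKO-labelled library, 2.64 times as large a share. The median nucleus had 2.93% and 9.59%. These transcripts are made in mitochondria and not in the nucleus, and how they came to be counted with these nuclei was not tested. The summed level of the 10 nuclear genes was not higher beside the larger mt- share. It was 736 UMIs per 1000000 nuclear-gene UMIs (CPM, with mt- UMIs left out of the denominator) in the flox/flox library and 679 in the BKO-labelled library, a log2 ratio of -0.12 (-0.17 to -0.06). The mitofusins made up 53.1% and 54.0% of this sum. Without *Mfn1* its direction turned, with 542 and 551 CPM and a log2 ratio of 0.02 (-0.04 to 0.09), and without both mitofusins it was 345 and 312 CPM, a log2 ratio of -0.14 (-0.23 to -0.06). *Mfn1*, *Lrpprc* and *Tfb2m* were lower in the BKO-labelled library, *Polg2* and *Mfn2* were higher, and the intervals of the log2 ratios of *Tfam*, *Polrmt*, *Tfb1m*, *Polg* and *Slirp* included 0.

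A ratio of at least 1.5 times was reached by 1 of the 10 genes upward (*Polg2*) and by 1 downward (*Mfn1*), and *Tfb2m* lay just short of it. Over the 13975 genes whose UMIs in these nuclei summed to at least 20 across the libraries, 29.0% were at least 1.5 times higher and 9.22% at least 1.5 times lower. Read against these shares, 1 gene of 10 lower was near the background and 1 of 10 higher was below it. The share of lower genes depended on the minimum of 20 UMIs and was 19.2% without it. The median log2 ratio of the 10 genes was 0.06, while that of all genes was 0.18, so the centre of the scale itself lay above 0.

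**Figure D1:**
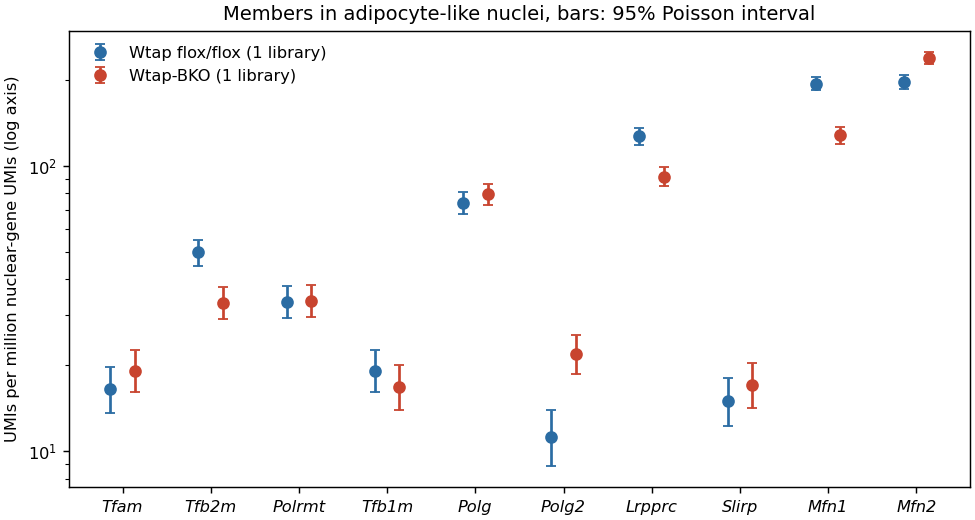
Level of each gene in adipocyte-like nuclei of both libraries, in UMIs per 1000000 nuclear-gene UMIs on a log axis, with 1 point for each library and its 95% Poisson interval. The intervals of the 2 libraries lie apart for *Tfb2m*, *Polg2*, *Lrpprc*, *Mfn1* and *Mfn2*, and overlap for the other 5 genes. Differences in level between genes are not read as differences in transcript number, since how evenly 3′ counting captured each gene was not tested.

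Among the genes of transcription, the promoter-binding protein *Tfam* (chr10:71225468-71238328 in GRCm38) had 118 UMIs, 16.5 CPM, in adipocyte-like nuclei of the flox/flox library and 138 UMIs, 19.1 CPM, in those of the BKO-labelled library. The log2 ratio was 0.22 (-0.15 to 0.58). The polymerase *Polrmt* (chr10:79736125-79746604) had 239 UMIs, 33.3 CPM, and 243 UMIs, 33.7 CPM, a log2 ratio of 0.01 (-0.25 to 0.28). Neither gene could be told apart between the libraries at this depth, while the mt- share of the same nuclei was 2.64 times as large. *Tfb2m* (chr1:179528052-179546305), which opens the promoter for the polymerase, went the other way. It had 356 UMIs, 49.6 CPM, and 239 UMIs, 33.1 CPM, a log2 ratio of -0.58 (-0.83 to -0.34). Its relative *Tfb1m* (chr17:3519250-3557796), which methylates the small ribosomal RNA of the mitochondrion and is not needed for initiation, had 137 UMIs, 19.1 CPM, and 121 UMIs, 16.8 CPM, a log2 ratio of -0.19 (-0.55 to 0.17). Of the UMIs of these relatives, *Tfb1m* made up 27.8% and 33.6%. The interval of the change in their ratio, on the log2 scale 0.40 (-0.05 to 0.84), included 0, so a difference between *Tfb1m* and *Tfb2m* was not detectable.

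The subunit genes of the replicative polymerase gave unlike values. The catalytic subunit *Polg* (chr7:79446231-79467911) had 531 UMIs, 74.0 CPM, in the flox/flox library and 574 UMIs, 79.5 CPM, in the BKO-labelled library, a log2 ratio of 0.10 (-0.07 to 0.28). The accessory subunit *Polg2* (chr11:106768204-106779537) had 80 UMIs, 11.2 CPM, and 158 UMIs, 21.9 CPM, a log2 ratio of 0.97 (0.58 to 1.38), the highest among the 10 genes. *Polg2* made up 13.1% (10.5 to 16.03) of the UMIs of both subunit genes in the flox/flox library and 21.6% (18.7 to 24.7) in the BKO-labelled library. This share uses counts of the same nuclei only and does not depend on the scaling.

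*Lrpprc* (chr17:84705247-84790786), the larger partner of the messenger RNA stabilising complex, was lower. It had 908 UMIs, 127 CPM, and 660 UMIs, 91.4 CPM, a log2 ratio of -0.47 (-0.62 to -0.32). Its small RNA-binding partner *Slirp* (chr12:87443896-87449924) had 107 UMIs, 14.9 CPM, and 123 UMIs, 17.0 CPM, a log2 ratio of 0.19 (-0.19 to 0.58). *Slirp* thus made up 10.5% (8.72 to 12.6) of the UMIs of both partners in the flox/flox library and 15.7% (13.2 to 18.4) in the BKO-labelled library.

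The mitofusins had the most UMIs of the set and differed in opposite directions. *Mfn1* (chr3:32529443-32579225) had 1390 UMIs, 194 CPM, in the flox/flox library and 922 UMIs, 128 CPM, in the BKO-labelled library, a log2 ratio of -0.60 (-0.72 to -0.48). *Mfn2* (chr4:147873586-147904909), which besides fusing mitochondria is known for tethering them to the endoplasmic reticulum and to lipid droplets, had 1410 UMIs, 197 CPM, and 1725 UMIs, 239 CPM, a log2 ratio of 0.28 (0.18 to 0.38). The value of *Mfn2* lay close to the 0.18 of the median gene, and it was 0.14 with median-of-ratios scaling. *Mfn1* made up 49.6% (47.8 to 51.5) of mitofusin UMIs in the flox/flox library and 34.8% (33.0 to 36.7) in the BKO-labelled library. On the log2 scale the ratio of *Mfn1* to *Mfn2* changed by -0.88 (-1.04 to -0.72), again with no dependence on scaling. Of the 5 gene pairs compared in this way, those of *Mfn1* and *Mfn2*, *Polg2* and *Polg*, and *Slirp* and *Lrpprc* had intervals apart from 0. The ratio of *Tfam* to *Polrmt* changed by 0.20 (-0.25 to 0.66).

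**Figure D2:**
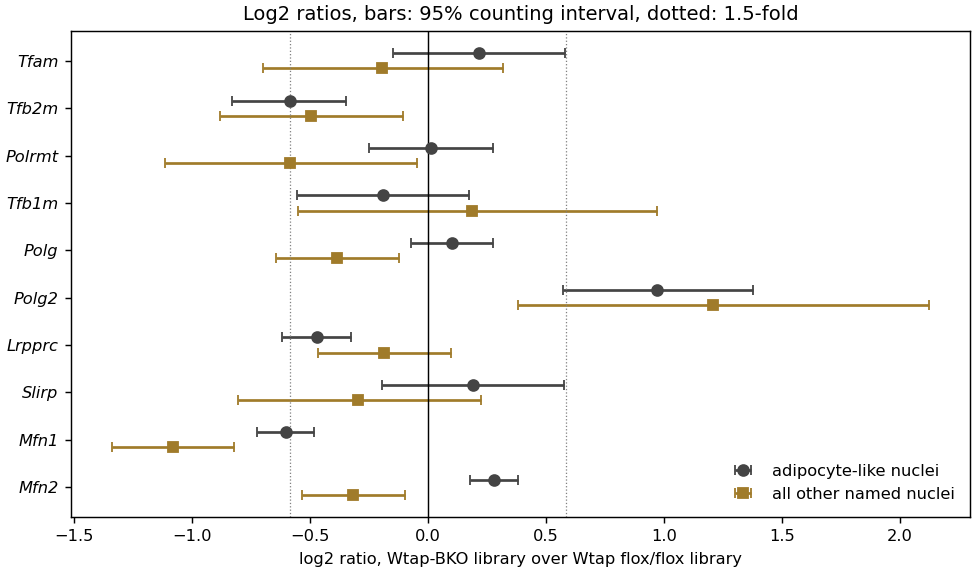
Log2 ratio of each gene, BKO-labelled library over flox/flox library, with circles for adipocyte-like nuclei and squares for all other named nuclei, and bars for the 95% counting interval. *Mfn1* lies below 0 in both, at -0.60 and -1.08, *Polg2* lies above 0 in both, and *Mfn2* lies above 0 in adipocyte-like nuclei and below 0 in the other named nuclei.

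Several of these loci share bases with a neighbour, which bears on counts made per gene. Among genes the files also list, in the RefSeq annotation of GRCm38, *Polg* overlapped *Fanci* by 4036 bases, *Tfb1m* overlapped *Cldn20* by 660 bases and *Tiam2* by 148 bases, *Mfn1* overlapped *Gnb4* by 639 bases, *Polg2* overlapped *Milr1* by 591 bases, and *Slirp* overlapped *Snw1* by 15 bases. *Tfam*, *Tfb2m*, *Polrmt*, *Lrpprc* and *Mfn2* overlapped no other gene in that annotation. The neighbours of the genes that differed had few UMIs in adipocyte-like nuclei, 4 and 17 for *Milr1* beside *Polg2* and 28 and 56 for *Gnb4* beside *Mfn1*. How the counting treated reads in shared bases or in introns was not given in the sources used here.

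The mt- share, taken over the pooled UMIs of a lineage, did not differ in the same direction in every lineage. In endothelial-like nuclei it was 15.3% of UMIs in the flox/flox library and 9.82% in the BKO-labelled library, lower by 5.51 percentage points. In macrophage-like nuclei it was 5.05% and 8.31%, in T cell-like nuclei 4.57% and 9.80%, in fibroblast-like nuclei 6.37% and 6.30%, and in pericyte-like nuclei 11.8% in both libraries. The median nucleus gave another picture in the last 2 lineages, with 3.31% and 4.89% in fibroblast-like and 4.08% and 5.26% in pericyte-like nuclei, and it was 8.52% and 6.07% in endothelial-like nuclei. In macrophage-like nuclei the median was 3.56% and 6.62%, and in T cell-like nuclei 3.31% and 7.95%. The summed level of the 10 genes was lower in the BKO-labelled library in each of these lineages, whichever way the mt- share went. In endothelial-like nuclei it was 520 and 423 CPM, a log2 ratio of -0.30 (-0.50 to -0.10). In macrophage-like nuclei it was 511 and 363 CPM, a log2 ratio of -0.49 (-0.75 to -0.23). The interval of pericyte-like nuclei included 0, with 445 and 371 CPM and a log2 ratio of -0.26 (-0.59 to 0.06). Over all named nuclei that were not adipocyte-like, the pooled mt- share was 11.7% and 8.68%, but the median nucleus went the other way, at 4.93% and 6.37%. The summed level there was 505 and 380 CPM, a log2 ratio of -0.41 (-0.52 to -0.31).

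RNA of adipocytes was present in these other nuclei too. The summed level of the 12 adipocyte markers in the other named nuclei was 53.4% of that in adipocyte-like nuclei in the flox/flox library and 32.2% in the BKO-labelled library. The 10 genes stood at 68.7% and 55.9% of their adipocyte-like level. The part of this RNA in the differences within other lineages was not tested. Markers of other cell types were in turn present in adipocyte-like nuclei. The summed level of the 10 macrophage markers there was 80.3 and 178 CPM, that of the 10 T cell markers 17.3 and 63.1 CPM, that of the 10 fibroblast markers 124 and 234 CPM, and that of the 10 endothelial markers 135 and 89.0 CPM, while the 12 adipocyte markers summed to 14632 and 19476 CPM. The 8 B cell markers summed to 1835 and 1502 CPM and the 8 pericyte markers to 186 and 305 CPM. Whether adipocytes express some of these markers themselves was not tested. No macrophage, fibroblast or endothelial marker was at 0 in either library. The part of these differences in the values of the 10 genes was not tested.

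**Figure D3:**
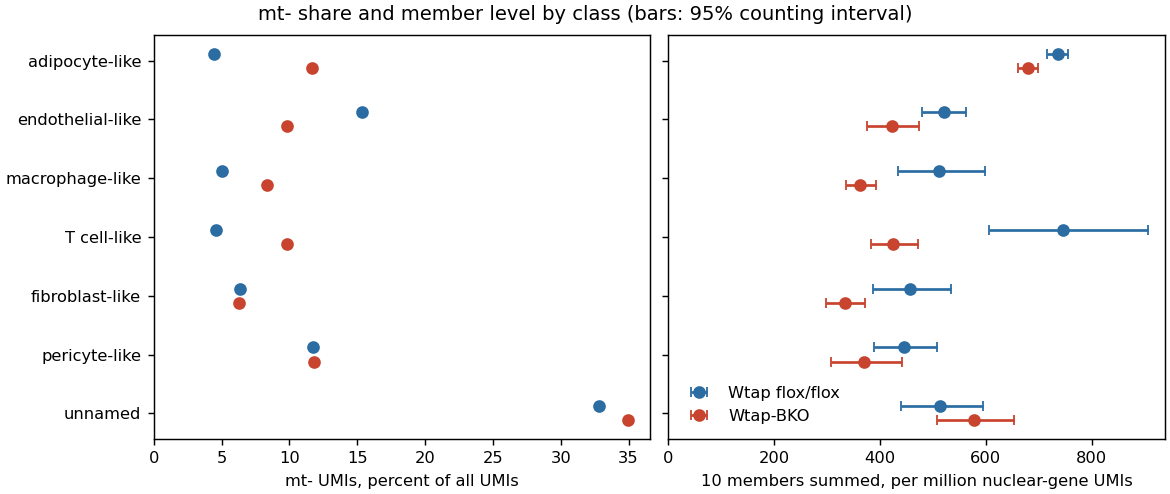
Pooled share of mt- UMIs in percent (left) and summed level of the 10 genes in UMIs per 1000000 nuclear-gene UMIs (right) for each class of nuclei, with 1 point for each library and its 95% counting interval, which is narrower than the point on the left. The mt- share is higher in the BKO-labelled library in adipocyte-like nuclei (11.6% against 4.41%) and lower in endothelial-like nuclei (9.82% against 15.3%), while the summed level is lower in that library in every named class shown.

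*Mfn1* had a lower level in the BKO-labelled library in each class shown. In endothelial-like nuclei it had 135 UMIs, 117 CPM, and 49 UMIs, 68.8 CPM, a log2 ratio of -0.76 (-1.26 to -0.28). In macrophage-like nuclei it had 36 UMIs, 118 CPM, and 81 UMIs, 48.1 CPM, a log2 ratio of -1.29 (-1.87 to -0.68). T cell-like nuclei, with 19 and 41 UMIs, gave -1.60 (-2.42 to -0.73). These were nuclei in which *Ucp1*-iCre is not meant to act. The interval of fibroblast-like nuclei reached 0, with 28 and 50 UMIs and a value of -0.72 (-1.41 to 0.01), and pericyte-like nuclei, with 48 and 17 UMIs, gave -0.92 (-1.81 to -0.10). In all other named nuclei together *Mfn1* stood at 109 CPM (96.2 to 123) and 51.5 CPM (45.2 to 58.5), a log2 ratio of -1.08 (-1.34 to -0.82).

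In the flox/flox library, *Mfn1* was highest in adipocyte-like nuclei at 194 CPM, followed by T cell-like nuclei at 143 (86.1 to 223), macrophage-like nuclei at 118, endothelial-like nuclei at 117, pericyte-like nuclei at 96.2 and fibroblast-like nuclei at 82.4. The intervals of neighbours in this order overlapped. In the BKO-labelled library, adipocyte-like nuclei led at 128 CPM (120 to 136). The other lineages with at least 100 nuclei in each library lay between 47.1 CPM in T cell-like nuclei and 68.8 CPM in endothelial-like nuclei. Their intervals overlapped each other but not that of adipocyte-like nuclei.

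*Mfn2* was likewise highest in adipocyte-like nuclei among the named lineages of both libraries, although the interval of T cell-like nuclei overlapped it in the flox/flox library. Its log2 ratio was below 0 in each of the other named lineages, most with intervals that included 0. It stood at 127 CPM and 121 CPM in endothelial-like nuclei, a log2 ratio of -0.07 (-0.47 to 0.32). In macrophage-like nuclei it stood at 121 CPM and 100 CPM, a log2 ratio of -0.27 (-0.79 to 0.28). In all other named nuclei it was 119 CPM and 95.7 CPM, a log2 ratio of -0.32 (-0.53 to -0.10), against 0.28 in adipocyte-like nuclei. *Mfn2* was thus 197 CPM against 119 CPM between adipocyte-like and other named nuclei of the flox/flox library, and 239 CPM against 95.7 CPM in the BKO-labelled library.

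Among lineages with at least 100 nuclei per library, the *Mfn1* share of mitofusin UMIs lay between 43.2% and 50.9% in the flox/flox library. In the BKO-labelled library it lay between 32.0% and 41.7%. In all other named nuclei it was 47.8% (43.5 to 52.0) and 35.0% (31.4 to 38.7), close to the 49.6% and 34.8% of adipocyte-like nuclei. In single lineages other than adipocyte-like nuclei the intervals of the libraries overlapped. The interval of the change in the ratio of *Mfn1* to *Mfn2* lay below 0 in endothelial-like nuclei at -0.69 (-1.33 to -0.05) and in macrophage-like nuclei at -1.02 (-1.83 to -0.20), and included 0 in T cell-, fibroblast- and pericyte-like nuclei, which had between 44 and 128 mitofusin UMIs in a library. In the unnamed cluster, the share was 47.4% (36.0 to 59.1) and 22.8% (15.7 to 31.2).

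**Figure D4:**
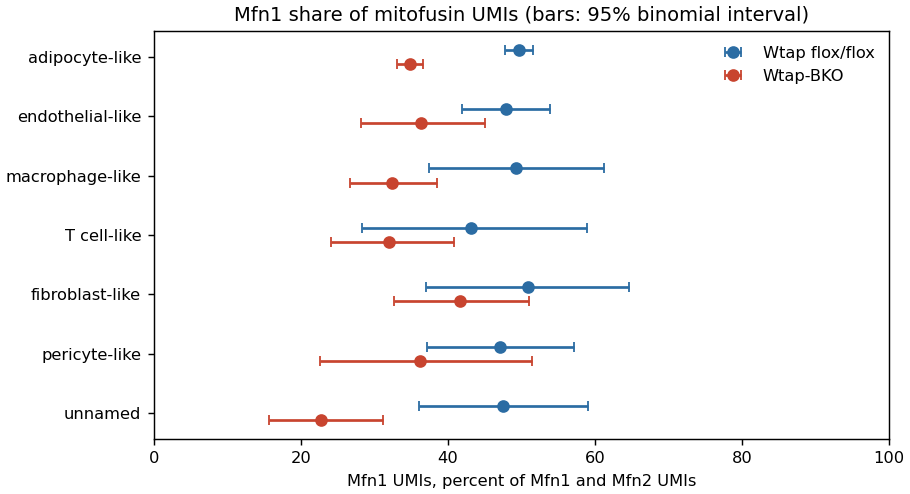
*Mfn1* UMIs in percent of *Mfn1* and *Mfn2* UMIs for each class of nuclei, with 1 point for each library and its exact binomial 95% interval. The point of the BKO-labelled library lies left of the flox/flox point in every class, at 34.8% against 49.6% in adipocyte-like nuclei.

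Of the other genes, *Polg2* was higher outside adipocyte-like nuclei as well, with 15 UMIs, 6.14 CPM, and 66 UMIs, 14.2 CPM, in all other named nuclei and a log2 ratio of 1.21 (0.38 to 2.12). This class mixes lineages in different proportions, with 1141 and 774 endothelial-like and 420 and 1924 immune nuclei, and in endothelial-like nuclei *Polg2* had 6 and 4 UMIs, a log2 ratio of 0.12 (-2.15 to 2.19). *Tfb2m* had 99 UMIs, 40.5 CPM, and 134 UMIs, 28.8 CPM, there, a log2 ratio of -0.49 (-0.88 to -0.10) beside the -0.58 of adipocyte-like nuclei. *Polrmt* and *Polg*, whose intervals included 0 in adipocyte-like nuclei, had intervals below 0 here, and the difference between the classes was not tested. *Polrmt* stood at 22.5 CPM and 15.0 CPM in other named nuclei, a log2 ratio of -0.58 (-1.11 to -0.05). *Polg* stood at 86.0 CPM and 65.9 CPM, a log2 ratio of -0.38 (-0.64 to -0.12). In these nuclei 1 of the 10 genes was at least 1.5 times higher and 1 at least 1.5 times lower, against 32.6% and 9.83% of 13852 genes, and the median of the 10 genes was -0.30 against 0.25 for all genes. *Lrpprc* was 127 CPM in adipocyte-like and 68.8 CPM in other named nuclei of the flox/flox library, and 91.4 CPM and 60.5 CPM in the BKO-labelled library.

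To set the genes beside the mt- share at the level of nuclei, adipocyte-like nuclei were binned by their own mt- share. The libraries filled the bins differently. Nuclei with under 5% mt- UMIs made up most of the flox/flox library, with 37.1% of nuclei at 0 to 2.5% and 41.0% at 2.5 to 5%, whereas 41.2% of the nuclei of the BKO-labelled library lay at 10 to 25%. Within a bin, nuclei of both libraries had a like mt- share, for example 6.91% and 7.36% of UMIs in the bin of 5 to 10%.

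*Mfn1* stayed lower in the BKO-labelled library in the 4 bins up to 25%, with log2 ratios of -0.39, -0.72, -0.58 and -0.39 from the lowest bin up. *Mfn2* had log2 ratios of -0.07, 0.27, 0.34 and 0.48 in the same bins. The share of *Mfn1* in mitofusin UMIs was 48.7%, 50.1%, 52.6% and 48.1% in the flox/flox library and 43.3%, 33.6%, 37.1% and 33.6% in the BKO-labelled library. The intervals of the libraries overlapped in the lowest bin, which held 141 mitofusin UMIs of the BKO-labelled library, and lay apart in the next 3. *Tfb2m* gave -0.32, -0.95, -0.87 and -0.66, and *Lrpprc* gave -0.51, -0.50, -0.14 and -0.48. For *Polg2*, the lowest bin held 5 UMIs of the BKO-labelled library and gave -0.09, and the next 3 bins gave 1.22 (0.42 to 2.03), 0.97 (-0.03 to 2.13) and 1.06 (-0.24 to 2.73), the last 2 with 10 and 5 UMIs of the flox/flox library. The summed level of the 10 genes had log2 ratios of -0.25, -0.19, -0.14 and 0.02. The median of all genes was 0.07, 0.12, 0.17 and 0.23 in the same bins, so the centre of the scale moved in the same direction as the sum and *Mfn2*. The bin over 25% held 59 nuclei of the flox/flox library and 15 of its mitofusin UMIs, so it is not described further.

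**Figure D5:**
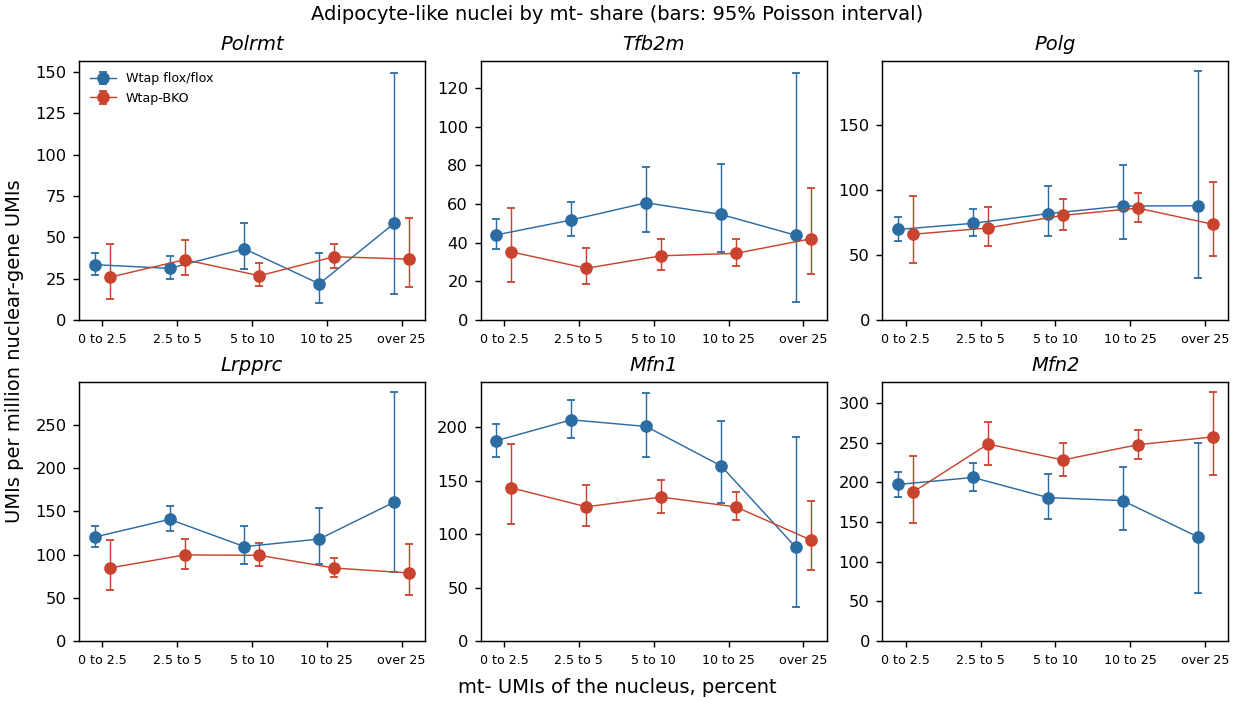
Level of 6 genes in adipocyte-like nuclei by the mt- share of the nucleus, in UMIs per 1000000 nuclear-gene UMIs, with 1 line for each library and 95% Poisson intervals. *Mfn1*, *Tfb2m* and *Lrpprc* lie lower in the BKO-labelled library in each bin up to 25%, *Mfn2* lies higher from 2.5% up, and within a library the intervals of the bins up to 25% overlap for each gene.

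The genes were also compared within a library, between nuclei rich and poor in mt- UMIs. Adipocyte-like nuclei with at least 10% mt- UMIs were set against those with under 5%, 521 against 5172 nuclei in the flox/flox library and 2259 against 1050 in the BKO-labelled library. In neither library did any of the 10 genes reach 1.5 times, while 12.9% of 11338 genes were at least 1.5 times higher and 17.3% lower in the first library, and 10.9% and 8.82% of 11664 genes in the second. The summed level was 738 CPM in poor and 679 CPM in rich nuclei of the flox/flox library, a log2 ratio of -0.12 (-0.28 to 0.03). In the BKO-labelled library it was 659 CPM and 688 CPM, a log2 ratio of 0.06 (-0.04 to 0.17). The intervals of 9 genes in the first library and of all 10 in the second included 0. *Slirp* came nearest to 1.5 times, with 22 and 61 UMIs in poor and rich nuclei of the BKO-labelled library and a log2 ratio of 0.58 (-0.14 to 1.36). Rich nuclei of the flox/flox library held only 5 to 14 UMIs of *Tfam*, *Tfb1m*, *Polrmt*, *Polg2* and *Slirp* each, so only large differences of these genes could be seen there. The interval apart from 0 was that of *Mfn1* in the flox/flox library, at 196 CPM in poor and 154 CPM in rich nuclei, a log2 ratio of -0.35 (-0.69 to -0.02), where 81 UMIs came from rich nuclei. In the BKO-labelled library *Mfn1* gave -0.09 (-0.33 to 0.15).

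The make-up of the mt- UMIs was examined next, since TFAM, TFB2M and POLRMT act on promoters of both strands and LRPPRC and SLIRP are known to stabilise messenger RNAs of the heavy strand. *mt-Nd6*, the protein gene of the light strand, made up 0.226% of the mt- UMIs of adipocyte-like nuclei in the flox/flox library (747 UMIs) and 0.211% in the BKO-labelled library (2011 UMIs), a log2 ratio of shares of -0.10 (-0.22 to 0.03). Its share was thus not detectably different between the libraries, although its UMIs were more numerous in the BKO-labelled library. How fully counting from 3′ ends captures this transcript was not tested, so its share is not read as a measure of light-strand transcription. On the log2 scale, *mt-Nd1* had the highest ratio of shares among heavy-strand genes, from 3.85% to 4.96%, a log2 ratio of 0.37 (0.34 to 0.39). *mt-Co3* had the lowest, from 21.7% to 17.6%, a log2 ratio of -0.30 (-0.31 to -0.29). *mt-Co1* had the largest share in both libraries, 27.6% and 29.5%. Shares within the mt- UMIs of adipocyte-like nuclei thus moved by at most 0.37 on the log2 scale, while their whole mt- share was 2.64 times as large. In all other named nuclei *mt-Nd1* gave 0.37 (0.34 to 0.40) and *mt-Co3* -0.13 (-0.14 to -0.11), so these shifts were not particular to adipocyte-like nuclei. Endothelial-like nuclei, with a lower pooled mt- share in the BKO-labelled library, gave 0.40 (0.34 to 0.45) and -0.16 (-0.19 to -0.13).

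Within the adipocyte-like nuclei, the mitofusins were also followed by cluster. The 4 clusters held 3403, 2860, 180 and 172 nuclei of the flox/flox library and 1904, 2012, 466 and 343 of the BKO-labelled library, so their make-up differed. The summed level of the 10 genes had log2 ratios of -0.13 (-0.21 to -0.06), 0.06 (-0.05 to 0.16), 0.11 (-0.19 to 0.42) and -0.02 (-0.34 to 0.30) in this order, and its interval lay below 0 in the first cluster alone. In that cluster *Mfn1* and *Mfn2* had log2 ratios of -0.65 and 0.26, and in the next -0.41 and 0.49. In the small cluster led by *Slc7a10*, *Mfn1* stood at 97.1 CPM and 100.2 CPM and *Mfn2* at 92.9 CPM and 167 CPM, a log2 ratio of 0.85. In the small cluster led by interferon-responsive Gbp genes, *Mfn1* stood at 86.2 CPM and 92.9 CPM and *Mfn2* at 167 CPM and 199.6 CPM. The share of *Mfn1* in mitofusin UMIs was 51.1% and 37.5% in the *Slc7a10* cluster and 34.0% and 31.8% in the Gbp cluster. The intervals of the change in ratio included 0 in both, at -0.80 (-1.79 to 0.19) and -0.15 (-1.20 to 0.94), with 45 and 47 mitofusin UMIs of the flox/flox library.

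The other nuclear genes that serve mitochondrial DNA, its RNA or mitochondrial shape were taken from lists of known function. Of 6 other genes of mitochondrial transcription, 3 were at least 1.5 times lower in adipocyte-like nuclei of the BKO-labelled library. None was 1.5 times higher. Over all genes in these nuclei, 9.22% were lower and 29.0% higher. The median log2 ratio of the 6 genes was -0.89. The lowest were *Mterf2* at -1.38, with 49 and 19 UMIs, and *Mterf1b* at -1.31, with 37 and 15 UMIs, members of the family of mitochondrial termination factors. The highest were the elongation factor *Tefm* at -0.27 and *Mterf4* at 0.55. Of 15 other genes of replication and maintenance, 2 were higher and 2 lower by this measure, with a median of -0.05. The exonuclease *Mgme1* (-0.78) and the ribonucleotide reductase subunit *Rrm2b* (-0.69) stood lowest, and the RNase H *Rnaseh1* (0.61) and the topoisomerase *Top1mt* (0.80) stood highest. In all other named nuclei 1 of the 6 transcription genes was higher and 1 lower, against 32.6% and 9.83% of all genes. For the lists here and below, the adipocyte-like values over all 13975 genes were 29.0% higher and 9.22% lower, with a median of 0.18.

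Of 20 other genes of mitochondrial RNA processing and stability, 1 was higher and 4 were lower, with a median of -0.27. *Hsd17b10* (-1.19) and *Trmt10c* (0.83), which are subunits of the same mitochondrial RNase P, lay at opposite ends, with *Fastkd2* at -0.81 and the ribosomal RNA methyltransferase *Mrm2* at 0.44. Of 17 translation factors, 2 were higher and 3 lower, with a median of -0.24. The release factors *Mtrf1* (-1.01) and *Mtrf1l* (-0.78) stood lowest, and the elongation factor *Tsfm* (0.60) was among the highest. Of 79 mitochondrial ribosomal protein genes, 22 were higher (27.8%) and 4 lower (5.06%), with a median of 0.21, near the values of all genes. In adipocyte-like nuclei they ranged from *Mrpl3* (-1.10) and *Mrps31* (-0.87) to *Mrpl43* (1.29) and *Mrps34* (1.32). In all other named nuclei 4 of the 79 were higher and 10 lower, against 32.6% and 9.83% of all genes. Their median there was -0.15, against 0.25 for all genes.

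Of 18 other genes of fusion, fission and inner membrane shape, 2 were higher, which is below the 29.0% of all genes, and none was lower, with a median of -0.25 against 0.18. The fission GTPase *Dnm1l* (-0.50) and the ubiquitin ligase *Mul1* (-0.48) stood lowest, and the protease *Oma1* (0.74), which cleaves OPA1, and *Mtfr2* (0.74) highest. Of 10 nuclear regulators of mitochondrial genes, 1 was higher and 4 were lower, against 29.0% and 9.22% of all genes, with a median of -0.15 against 0.18. The coactivator *Ppargc1a* (-1.17) and *Perm1* (-1.33), which acts with it, were lowest, while *Nrf1* (0.37), a transcription factor known for activating *Tfam*, and *Gabpb1* (0.83), a subunit of the factor also called NRF2, were highest. The other subunit of that factor, *Gabpa*, named here after its value was seen, stood at -0.95 (-1.14 to -0.76), with 672 and 350 UMIs. In all other named nuclei 1 of the 10 regulators was likewise higher and 4 were lower, so this count was not particular to adipocyte-like nuclei. Of the 18 genes of fusion, fission and shape, 1 was higher and 5 were lower there. Over all genes of those nuclei, 32.6% were higher and 9.83% lower.

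For the mitofusins, the genes with the most similar levels over the 12 combinations of lineage and library were sought among 10202 genes. *Ppp2r5a*, *Amy1* and *Aifm2* came closest to *Mfn2*, with Pearson's r of log2 levels of 0.956, 0.952 and 0.9498. *Aspg*, *A530065N20Rik* and *Letmd1* came closest to *Mfn1*, with r of 0.982, 0.982 and 0.973. The points of 1 library share its depth and its free RNA, so these values are descriptions.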

How the data were processed

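The files held raw UMI counts per gene and nucleus, which the authors had made with Cell Ranger (5.0.0 per the file headers) from 10x 3′ libraries. The submitters' processing notes name Trimmomatic, FastQC, Seurat and mm10. Nuclei with at least 500 UMIs were deposited, and none was removed here. Of 38 symbols shared by several genes, the gene listed first was used.

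Clusters were formed with Seurat 5.3.0 (R 4.3.3) after the methods of the study, by canonical correlation analysis of 2000 variable features, on 20 PCs with the resolution at 0.5. The 10 genes and mt- genes were left out of the variable features. Clusters were named from marker genes. An adipocyte-like cluster whose median nucleus had over 25% mt- UMIs stayed unnamed, a threshold set after the data were seen. Scrublet (scanpy 1.11.5) called 3 and 0 doublets and had thus not worked, so no doublet was removed.

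Levels were UMIs summed per class and library over nuclear-gene UMIs, with exact Poisson intervals. Shares had exact binomial (Clopper-Pearson) intervals, and ratios exact conditional ones (scipy 1.17.1). A library with 0 UMIs was set to 3. The calculation was tested on simulated data. No p-value was computed, since each genotype had 1 library. Named genes were all 10 genes, the 2 highest and 2 lowest of each list (1 of these is not reported here), and the 3 genes most like each mitofusin. The largest mt- gene changes were named after their values were seen. The genes and lists were chosen with earlier results of these data known. Coordinates and overlaps are from RefSeq (GRCm38.p6, the build named mm10). The closing section gives 13 other settings, of which 3 were added after seeing the data.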

Additional observations from a re-analysis of the deposited data

Results flagged for a closer look

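*Mfn2* differed in direction between lineages. Its log2 ratio of the BKO-labelled library over the flox/flox library was 0.28 in adipocyte-like nuclei and -0.91 in T cell-like nuclei, with intervals apart from 0 on opposite sides. The T cell-like value rests on 114 nuclei and 25 *Mfn2* UMIs of the flox/flox library, in which adipocyte markers stood at 65.1% of their adipocyte-like level against 35.8% in the BKO-labelled library. The difference between the lineages was not tested, and the part of adipocyte RNA in it was not tested.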

How the results depend on the processing

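No paired analysis was possible because each genotype had 1 library. *Tfb2m*, *Polg2*, *Lrpprc*, *Mfn1* and *Mfn2* kept their direction in the 11 alternatives run for them, and the summed level in 11 of 12, the exception being the sum without *Mfn1*, at 0.025. The 5 genes whose intervals included 0 crossed 0 in at least 1. *Polrmt* kept the sign of its 0.01 in 6, *Polg* in 7, *Slirp* in 9, and *Tfam* and *Tfb1m* in 10. Among nuclei with 5 to 10% mt- UMIs alone *Polrmt* gave -0.69 (-1.30 to -0.06), *Slirp* -0.52, *Tfb1m* 0.16 and *Tfam* -0.01, the intervals of *Lrpprc* at -0.14 (-0.49 to 0.22) and of *Polg2* at 0.97 (-0.03 to 2.13) included 0, and the cause was not tested. The log2 ratio of the summed level went from -0.12 to -0.23 with mt- UMIs in the denominator and to -0.26 with median-of-ratios scaling, which moved the median of all genes from 0.18 to 0.07 and 0.03. The number of genes at least 1.5 times higher was 1 in each of the 12 alternatives. The number at least 1.5 times lower was 1, but 2 with mt- UMIs in the denominator, without *Gm42418*, without nuclei over 5% mt- UMIs, without the highest Scrublet scores, at a resolution of 1, with the genes kept among the variable features and among nuclei with 5 to 10% mt- UMIs alone, and 3 with median-of-ratios scaling, where *Mfn1* gave -0.75 and *Mfn2* 0.14. The mt- share of adipocyte-like nuclei, 4.41% and 11.6%, was 4.42% and 11.7% with a minimum of 1000 UMIs, 2.56% and 3.34% without nuclei over 5%, 4.43% and 11.7% with 8 PCs, 4.48% and 11.7% with the genes kept among the variable features, and 6.19% and 13.4% with the unnamed cluster added. The change in the ratio of *Mfn1* to *Mfn2* stayed between -0.91 and -0.81. With no minimum of UMIs per gene, 31.0% of all genes were at least 1.5 times higher and 19.2% lower in adipocyte-like nuclei. Those shares were 29.0% and 9.22% with the minimum of 20, so the background of lower genes depends on it. Genes with few UMIs, such as *Tfam*, *Slirp* and *Polg2*, are limited by depth, and the pooled mice leave the spread between animals unknown.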
